A study of Mus musculus with 18 samples.

Results

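The collagen genes were taken as every protein-coding gene of the deposited table whose symbol reads Col, a type number, the letter a and a chain number, with nothing after it. The rule found 44 genes among 53465 in the table, of which 22040 are protein-coding. It used names and no measured value. In all, 41 of the 44 had a count in at least 1 of the 18 libraries, and Col6a4, Col19a1 and Col24a1 had none.

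The libraries came from 9 adult female C57BL/6J mice of 8 to 10 weeks with a contusion of the thoracic spinal cord. At 48 h after the injury the cord was injected with 100 ng of recombinant IL-4 (mice 8, 9 and 10), 100 ng of recombinant IL-13 (mice 5, 6 and 7) or PBS as vehicle (mice 1, 2 and 3). After a further 24 h, microglia (CD45low, CD11b+ and F4/80+) and macrophages (CD45high, CD11b+ and F4/80+) were sorted from the cord of each mouse, which gave 6 groups of 3 libraries named PBS, IL-13 and IL-4 microglia and PBS, IL-13 and IL-4 macrophages. No mouse was uninjured, so every group carries the lesion and an injection. The cells were gated on surface proteins of myeloid cells, and a sorted library can hold RNA of other cells of the injured cord.

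Collagens are the main structural proteins of connective tissue. Their chains wind around each other into a stiff helix, after enzymes in the endoplasmic reticulum have hydroxylated prolines and lysines, and the finished molecules assemble outside the cell into fibrils, sheets or beaded filaments. In the spinal cord, basement membrane collagen surrounds blood vessels, and after an injury fibroblasts and perivascular cells lay down fibrillar collagen in the lesion core. Microglia and macrophages are known mainly for binding, degrading and taking up collagen, through receptors such as the mannose receptor Mrc1.

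The promoters of 4 members are shown because these genes form the pairs whose levels ran side by side below: Col4a1 with Col4a2, the chains of vessel basement membrane, and Col6a1 with Col6a2, the chains of beaded filaments. Each sequence is the RefSeq window of GRCm38.p6 from 250 bases before to 50 bases after the annotated start, read 5′ to 3′ on the strand of the gene, with matches to CCAAT or its reverse complement and to GGGCGG or its reverse complement in capitals. The windows are chr8:11312777-11313076 on the minus strand for Col4a1, chr8:11312555-11312854 on the plus strand for Col4a2, chr10:76725995-76726294 on the minus strand for Col6a1 and chr10:76623581-76623880 on the minus strand for Col6a2.
Col4a1: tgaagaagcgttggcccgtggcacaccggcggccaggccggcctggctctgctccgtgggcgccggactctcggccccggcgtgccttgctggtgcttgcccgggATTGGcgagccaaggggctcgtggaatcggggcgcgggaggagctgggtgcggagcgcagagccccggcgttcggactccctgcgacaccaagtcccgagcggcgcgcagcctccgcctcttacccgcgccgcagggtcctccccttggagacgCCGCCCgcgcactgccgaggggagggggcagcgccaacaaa
Col4a2: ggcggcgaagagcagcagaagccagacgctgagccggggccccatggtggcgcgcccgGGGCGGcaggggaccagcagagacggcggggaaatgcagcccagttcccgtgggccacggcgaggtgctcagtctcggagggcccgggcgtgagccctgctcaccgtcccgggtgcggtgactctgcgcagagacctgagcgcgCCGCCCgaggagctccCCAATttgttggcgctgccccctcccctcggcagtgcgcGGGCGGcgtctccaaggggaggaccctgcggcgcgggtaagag
Col6a1: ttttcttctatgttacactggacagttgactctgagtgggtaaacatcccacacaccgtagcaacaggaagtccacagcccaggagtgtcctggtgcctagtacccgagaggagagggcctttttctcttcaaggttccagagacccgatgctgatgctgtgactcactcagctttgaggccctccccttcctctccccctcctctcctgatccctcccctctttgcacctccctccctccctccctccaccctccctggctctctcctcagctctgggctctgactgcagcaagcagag
Col6a2: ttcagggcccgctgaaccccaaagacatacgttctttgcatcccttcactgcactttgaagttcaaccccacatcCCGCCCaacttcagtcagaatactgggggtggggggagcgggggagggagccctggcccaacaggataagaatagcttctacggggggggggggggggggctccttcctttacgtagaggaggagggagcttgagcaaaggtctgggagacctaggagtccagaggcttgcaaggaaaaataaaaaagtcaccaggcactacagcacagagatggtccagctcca

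Col4a1 and Col4a2 lie head to head on chromosome 8, with start sites 21 bases apart, so their windows share 78 bases. The letters were searched on both strands. Col4a1 held 1 match to CCAAT and 1 to GGGCGG, Col4a2 held 1 and 3, Col6a2 held 1 match to GGGCGG, and Col6a1 held neither motif. The GGGCGG match of Col4a1 and 1 of the 3 in Col4a2 are the same site in the shared bases, read from opposite strands. TATAAA was absent from these 4 windows, and so was TTCNNNNGAA, the spacing of bases that STAT6, the factor downstream of IL-4 and IL-13, is known to prefer. Of 32851 RefSeq promoter windows of this length, 37.4% held CCAAT, 35.7% GGGCGG, 13.6% TATAAA and 6.95% TTCNNNNGAA. Of the 38 windows of the 35 collagen genes that had an entry, 13 held CCAAT, 23 GGGCGG, 5 TATAAA and 0 TTCNNNNGAA. No promoter entry was matched for Col1a1, Col2a1, Col4a3, Col5a2, Col9a3, Col12a1, Col14a1, Col22a1 and Col26a1.

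Collagen RNA was abundant in the microglia libraries and scarce in the macrophage libraries. All members together took 0.290% ± 0.0439 of the counts in PBS microglia, 0.469% ± 0.386 in IL-13 microglia and 0.125% ± 0.0650 in IL-4 microglia (mean ± SD, n = 3 each). In macrophages the shares were 0.00274% ± 0.000582, 0.00190% ± 0.000433 and 0.000885% ± 0.000205 in the same order of treatments (n = 3 each). The wide error in IL-13 microglia came from mouse 6, whose share was 0.915% against 0.253% in mouse 5 and 0.241% in mouse 7. At the other end, mouse 10 had 0.0537% against 0.181% and 0.141% in the other IL-4 microglia libraries.

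**Figure D1:**
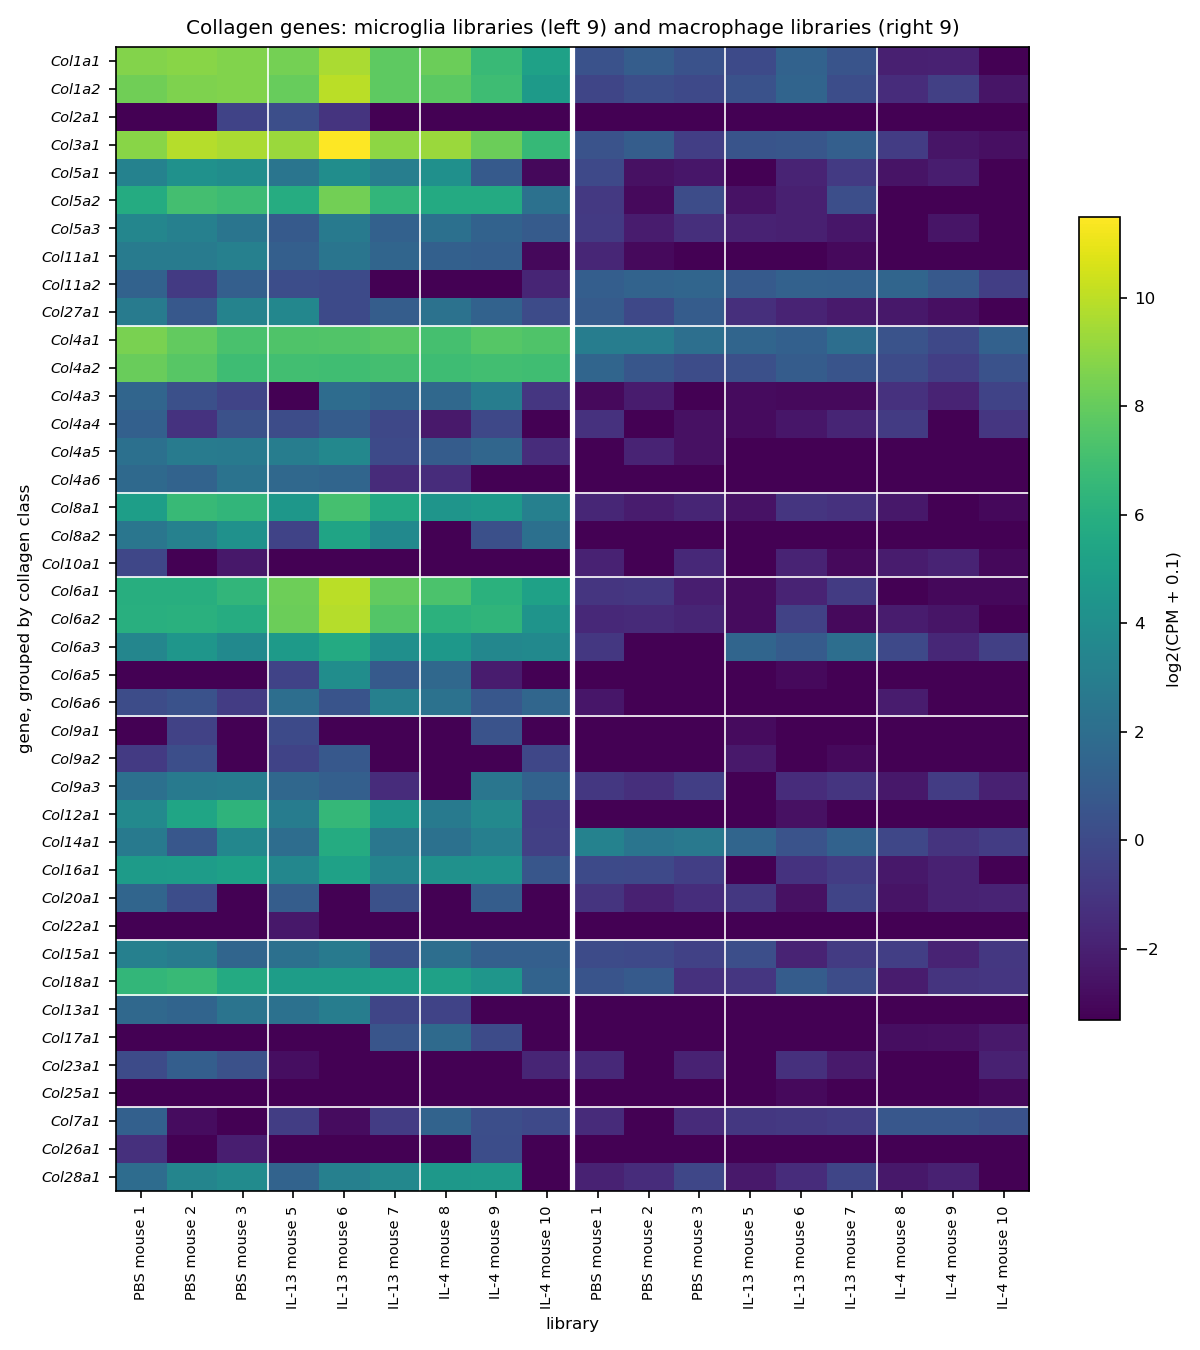
Heat map of the level of the 41 collagen genes with a count (rows, by structural class) in the 18 libraries (columns, by cell type, treatment and mouse), as log2 of CPM (counts per 1000000 counts) plus 0.1, where brighter colours are higher. The microglia columns are brightest in the rows of Col3a1, Col1a1, Col1a2, Col4a1, Col4a2, Col6a1 and Col6a2, and the macrophage columns are dark in most rows.

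Levels are given as CPM, the counts of a gene per 1000000 counts of its library, after 1 TMM scaling over the 18 libraries, always in the order of mice 1, 2 and 3 for PBS, 5, 6 and 7 for IL-13, and 8, 9 and 10 for IL-4. Libraries held 35961305 to 45849829 counts. Counts come from amplified cDNA with no molecular identifiers, so intervals given below cover counting error only. The mice are separate animals, and each difference was tested with edgeR's quasi-likelihood test with Benjamini-Hochberg adjustment over all genes tested, at an adjusted p of 0.05.

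Per kb of exonic length, over the 9 microglia libraries, the order of the mean levels was Col3a1 (81.0 CPM per kb), Col1a1 (51.6), Col6a1 (50.8), Col4a1 (26.8), Col1a2 (26.1), Col6a2 (23.6), Col4a2 (22.6), Col5a2 (10.2), Col8a1 (6.86), Col18a1 (6.24) and Col16a1 (3.04). The spread between libraries was too wide to order many neighbours, since Col3a1 differed 29.9-fold and Col1a1 21.7-fold between their highest and lowest microglia libraries. In macrophages the order began with Col4a1 (0.486 CPM per kb), Col14a1 (0.459), Col11a2 (0.298), Col4a2 (0.205) and Col1a1 (0.159). Col14a1 and Col11a2 thus stood among the leading members of macrophages, while in microglia neither was among the leading 11. These orders pool the treatments, and they changed with treatment. Col6a1 was second with IL-13 (117 ± 95.8 CPM per kb) but followed Col4a1, Col4a2 and Col1a2 with PBS (16.2 ± 3.27). Among macrophages Col14a1 led with PBS (0.990 ± 0.309), Col4a1 with IL-13 (0.395 ± 0.118) and Col11a2 with IL-4 (0.242 ± 0.160), where Col14a1 (0.0790 ± 0.0304) came after Col7a1 (0.137 ± 0.0156; SD, n = 3 each).

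The fibrillar collagens made up most of the summed level of the members in the PBS and IL-13 microglia libraries and in IL-4 mouse 8, but not in IL-4 mice 9 and 10. Col3a1, the chain of type III collagen of loose and early scar tissue (ENSMUSG00000026043.18, chr1:45311538-45349706 of GRCm38, the build of all coordinates here), was at 464, 925 and 791 CPM in PBS microglia, 614, 2858 and 503 in IL-13 microglia and 614, 290 and 95.6 in IL-4 microglia. Col1a1, the major chain of type I collagen (ENSMUSG00000001506.10, chr11:94936224-94953042), was at 433, 459 and 411 CPM in PBS, 329, 768 and 224 in IL-13 and 281, 104 and 35.4 in IL-4 microglia. Col1a2, its partner chain in type I collagen (ENSMUSG00000029661.16, chr6:4504814-4541544), was at 303, 393 and 406 CPM in PBS, 265, 971 and 222 in IL-13 and 213, 119 and 26.6 in IL-4 microglia. For all 3 genes IL-13 mouse 6 lay above every PBS library, while mice 5 and 7 lay below every PBS library for Col1a1 and Col1a2 and within the PBS range for Col3a1. In IL-4 microglia, mice 9 and 10 lay below every PBS library for each of these genes, and mouse 8 did so for Col1a1 and Col1a2 only.

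The chains of type I collagen kept a narrow ratio while their levels moved. Per kb, Col1a1 stood above Col1a2 by 1.5 to 2.71 times with a median of 2.21 over the 9 microglia libraries, while Col1a2 itself differed 36.5-fold between libraries. The ratio of Col3a1 to Col1a1 per kb ran wider, from 0.716 in PBS mouse 1 to 2.49 in IL-13 mouse 6. These ratios are descriptions over libraries that share the same sort, and no test was attached to them.

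In macrophages the same genes were near the floor. Col1a1 was at 1.22, 1.92 and 1.25 CPM in PBS, 0.910, 2.43 and 1.36 in IL-13 and 0.143, 0.157 and 0 in IL-4 macrophages. Col3a1 was at 1.3, 1.92 and 0.584 CPM in PBS, 1.31, 1.44 and 2.14 in IL-13 and 0.523, 0.0783 and 0.0512 in IL-4 macrophages. The IL-4 libraries lay below all PBS and IL-13 libraries for both genes, and every macrophage library lay far below every microglia library.

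Among the minor fibrillar chains, Col5a2, which joins type V collagen to the core of fibrils, was at 54.3, 135 and 112 CPM in PBS, 56.9, 326 and 85.1 in IL-13 and 53.6, 51.8 and 4.51 in IL-4 microglia. It again peaked in mouse 6 and was lowest in mouse 10. Col5a1, Col5a3 and Col11a1 stayed between 0.0272 and 17.7 CPM in microglia. Col27a1, a fibrillar chain of cartilage, ranged from 0.922 to 11.4 CPM in microglia, and Col2a1, the collagen of cartilage, had counts in 3 microglia libraries and in no macrophage library.

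Vessel basement membrane collagen varied little between the microglia libraries. Col4a1 (ENSMUSG00000031502.11, chr8:11198423-11312826) was at 358, 241 and 150 CPM in PBS, 171, 179 and 198 in IL-13 and 141, 191 and 169 in IL-4 microglia. Col4a2, which joins it in the common heterotrimer of type IV collagen (ENSMUSG00000031503.13, chr8:11312805-11449287), was at 275, 201 and 119 CPM in PBS, 127, 125 and 131 in IL-13 and 117, 129 and 123 in IL-4 microglia. PBS mouse 1 was the highest library for both genes, and the PBS range overlapped those of both cytokines. Between the highest and the lowest of the 9 libraries, Col4a1 differed 2.53-fold and Col4a2 2.34-fold, and their ratio per kb stayed between 1.07 and 1.34. Their annotated starts overlap by a short stretch on opposite strands, and the libraries do not mark strand, so reads inside that overlap cannot be told apart.

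The other type IV chains, which build the specialised basement membranes of kidney, eye and muscle, were low. Col4a5 was at 4.38, 7.01 and 6.44 CPM in PBS, 7.72, 11.9 and 0.921 in IL-13 and 1.90, 2.85 and 0.272 in IL-4 microglia. Its head-to-head neighbour Col4a6 on chromosome X was at 3.20, 2.52 and 4.87, then 3.07, 2.79 and 0.255, then 0.275, 0 and 0 CPM, and had no count in any macrophage library. For both genes all IL-4 microglia libraries lay below all PBS libraries. Col4a3 and Col4a4, which lie 71 bases apart on opposite strands of chromosome 1, ran from 0 to 7.71 and from 0 to 2.23 CPM in microglia with overlapping groups.

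Type VI collagen, whose beaded filaments sit between basement membrane and interstitial fibrils, had another pattern. Col6a1 (ENSMUSG00000001119.7, chr10:76708792-76726168) was at 62.0, 63.0 and 87.3 CPM in PBS, 297, 994 and 241 in IL-13 and 155, 69.1 and 36.0 in IL-4 microglia. Col6a2 (ENSMUSG00000020241.13, chr10:76595762-76623630), the next member on the same strand at a gap of 85161 bases, was at 65.0, 68.3 and 58.2 CPM in PBS, 287, 929 and 181 in IL-13 and 74.1, 81.7 and 20.4 in IL-4 microglia. For both genes all 3 IL-13 libraries lay above all PBS and all IL-4 libraries, and the IL-4 range held the PBS range. Col6a3, the long chain of the same molecule (ENSMUSG00000048126.16, chr1:90765923-90843971), was at 10.9, 21.8 and 12.8 CPM in PBS, 26.5, 52.2 and 16.5 in IL-13 and 23.6, 11.6 and 13.1 in IL-4 microglia, with overlap between the groups. Per kb, Col6a3 reached only 0.0192 to 0.133 of the level of Col6a1.

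Col6a5 had no count in PBS microglia and stood at 0.702, 15.1 and 1.76 CPM in IL-13 and 3.15, 0.115 and 0 in IL-4 microglia. Against a floor of 3 counts per library, its mean was at least 85.0-fold higher in IL-13 and at least 15.8-fold higher in IL-4 than in PBS microglia, with mouse 6 and mouse 8 carrying most of it. Col6a6 was at 0.978, 1.25 and 0.529 CPM in PBS, 3.95, 1.36 and 8.68 in IL-13 and 4.62, 1.53 and 2.85 in IL-4 microglia. Every cytokine library lay above every PBS library for Col6a6, at a low level.

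**Figure D2:**
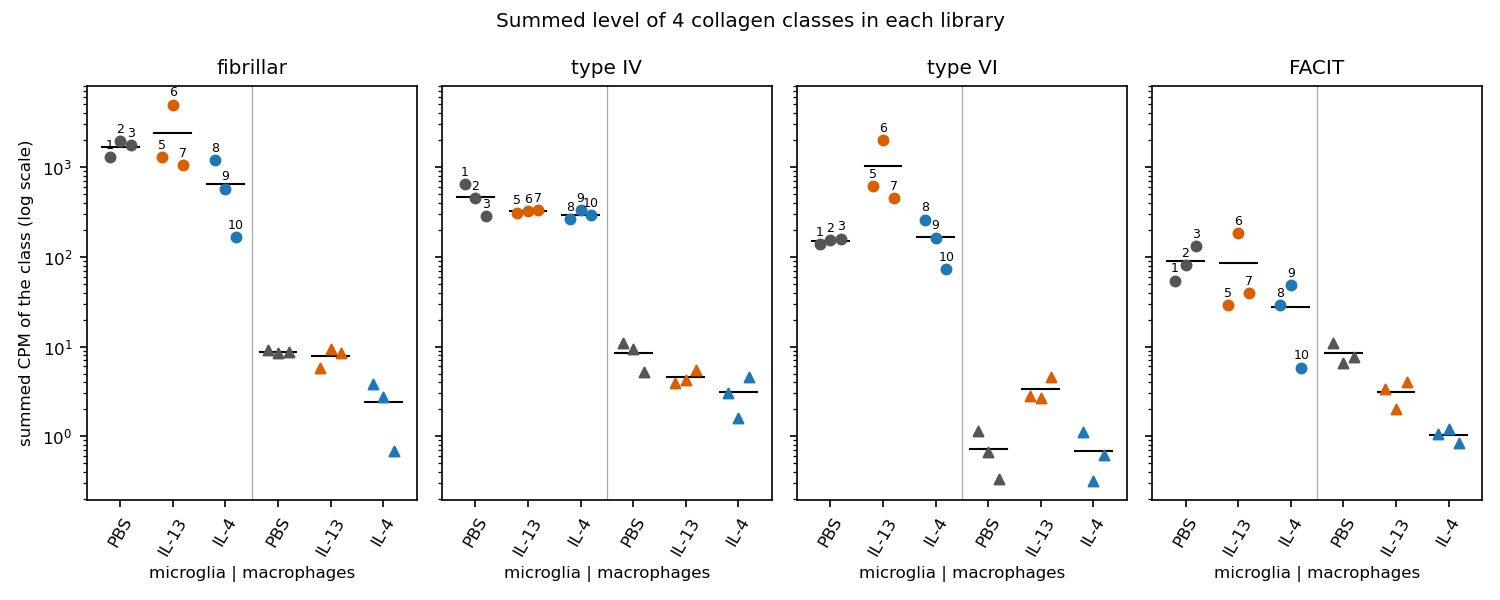
Summed level of the fibrillar, type IV, type VI and FACIT collagens in each library (log axis, CPM) by cell type and treatment, with circles for microglia labelled by mouse, triangles for macrophages and lines at the group means. The fibrillar sum of microglia spans 165 to 4952 CPM and the type IV sum 264 to 645 CPM, and the type VI sum is 615, 1992 and 449 CPM in the 3 IL-13 microglia libraries and at most 260 CPM in the other microglia.

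The fibril-associated collagens (FACIT), which coat fibrils and do not form them, were led in microglia by Col16a1, Col12a1 and Col14a1. Col16a1 was at 27.6, 29.0 and 33.8 CPM in PBS, 11.3, 34.9 and 9.98 in IL-13 and 17.7, 19.0 and 1.47 in IL-4 microglia. Its IL-4 libraries all lay below its PBS libraries, the IL-13 range overlapped both, and the lowest library was again IL-4 mouse 10. Col12a1, a collagen of tendon and other loaded tissue, was at 12.3, 41.5 and 78.9 CPM in PBS, 7.23, 91.7 and 22.3 in IL-13 and 6.69, 12.5 and 0.571 in IL-4 microglia, and its groups overlapped. Col14a1 (ENSMUSG00000022371.16, chr15:55307750-55520803), a regulator of fibril diameter, was at 6.80, 1.53 and 11.5 CPM in PBS, 3.77, 54.8 and 5.72 in IL-13 and 4.57, 8.40 and 0.598 in IL-4 microglia. Its macrophage values of 9.39, 5.25 and 6.20 with PBS, 2.80, 1.29 and 2.39 with IL-13 and 0.785, 0.365 and 0.512 with IL-4 lay within the microglia range with PBS and fell into 3 bands that did not overlap between treatments.

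Of the multiplexins, Col18a1, the basement membrane collagen that releases endostatin, was at 88.6, 101 and 52.8 CPM in PBS, 30.2, 30.3 and 32.1 in IL-13 and 34.7, 21.7 and 2.53 in IL-4 microglia. All cytokine libraries lay below all PBS libraries. Col15a1 was at 8.56, 7.10 and 2.71 CPM in PBS, 4.31, 6.52 and 1.22 in IL-13 and 3.97, 2.14 and 2.12 in IL-4 microglia, with overlap. The short chain collagen Col8a1, made by vessel walls, was at 30.8, 101 and 84.2 CPM in PBS, 23.0, 141 and 48.2 in IL-13 and 21, 25.8 and 8.78 in IL-4 microglia, and Col8a2 was at 5.5, 9.10 and 17.6, then 0.702, 40.3 and 13.1, then 0, 1.11 and 4.35 CPM. Both were highest in IL-13 mouse 6 and lowest in an IL-4 library, and every IL-4 library of both lay below every PBS library.

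Transmembrane and remaining collagens were low. Col13a1 was at 3.06, 2.67 and 5.03 CPM in PBS, 4.49, 7.61 and 0.745 in IL-13 and 0.699, 0 and 0 in IL-4 microglia. Col23a1 was at 0.929, 2.03 and 1.17 CPM in PBS, 0.0468, 0 and 0 in IL-13 and 0, 0 and 0.190 in IL-4 microglia. All IL-4 libraries lay below all PBS libraries for both genes, and for Col23a1 all IL-13 libraries did too, at 2 counts in IL-13 against 183 in PBS (ratio 99.0, exact interval 27.0 to 824). Col17a1, the hemidesmosome collagen, was at 0 in all PBS microglia, at 0, 0 and 1.37 CPM in IL-13 and at 3.37, 0.956 and 0 in IL-4 microglia. The von Willebrand domain collagen Col28a1, known from peripheral nerve, was at 3.64, 10.6 and 13.8 CPM in PBS, 2.53, 8.59 and 11.7 in IL-13 and 23.3, 25.2 and 0 in IL-4 microglia. Col7a1, the anchoring fibril collagen, was at 2.23, 0.0431 and 0, then 0.538, 0.0419 and 0.529, then 2.5, 1.07 and 0.870 CPM in microglia. The groups of Col17a1, Col28a1 and Col7a1 overlapped.

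Of the other scarce members, Col25a1, a collagen of neurons, had 2 counts in all, both in macrophage libraries, and Col22a1 had 4 counts in 1 microglia library. In all, 21 members had a count in all 9 microglia libraries and 9 members in all 9 macrophage libraries. For 20 members the microglia library lay above the macrophage library in 9 of 9 mice.

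The comparison of cell types within each treatment asked which sorted population held the collagen RNA. Nearly all tested collagen genes were higher in microglia, and none was called higher in macrophages, where edgeR called 16.4%, 9.43% and 9.83% of all genes higher in macrophages with PBS, IL-13 and IL-4. With PBS, 27 of 31 tested members were called higher in microglia, where 24.5% of all genes tested were called higher there. With IL-13 it was 25 of 31, against 17.1% of all genes, and with IL-4 it was 18 of 24, against 13.2%. The median log2 fold change of the tested members was 6.14, 6.48 and 6.74 in that order, or 5.35, 5.68 and 6.29 with members at 0 in macrophages set to their bound, beside 0.04, 0.04 and -0.03 over all genes. Members that are high in microglia alone passed the filter on low counts through microglia, so these counts and medians describe the tested members and not all 44. Without mouse 7 the IL-13 count was 16, and in the IL-4 comparison it was 10 without mouse 8 and 11 without mouse 9. Of the called members, 23 of 27 with PBS, 13 of 25 with IL-13 and 9 of 18 with IL-4 were called without each of the 3 mice in turn. The calls of Col23a1 with PBS, Col4a4 with IL-13 and Col15a1 with IL-4 were lost whichever mouse was left out (adjusted p from 0.0693 to 0.127, 0.0969 to 0.14 and 0.127 to 0.178).

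With PBS, 8 of 9 tested fibrillar members were called higher in microglia: Col1a1, Col1a2, Col3a1, Col5a1, Col5a2, Col5a3, Col11a1 and Col27a1. The mean level was 297-fold higher for Col1a1 (log2 fold change 8.19, SE 0.205, edgeR adjusted p = 3.94e-07) and 573-fold higher for Col3a1 (9.14, SE 0.472, edgeR adjusted p = 4.49e-06). With IL-13 the same 8 were called of 9, and with IL-4 6 of 7 (all but Col5a1 and Col11a1 of the 8), where the folds of Col3a1 were 813 and 1530. Col5a2 had no count in IL-4 macrophages, and its mean was at least 485-fold higher in IL-4 microglia. The exception was Col11a2, a chain of cartilage fibrils, at 2.40, 0.474 and 2.12 CPM in PBS microglia and 2.01, 2.53 and 2.70 in PBS macrophages. Col11a2 was at 1.75, 2.28 and 2.20 in IL-13 macrophages and 2.76, 1.67 and 0.563 in IL-4 macrophages, against 1.03, 0.922 and 0 and then 0, 0 and 0.190 in the matching microglia. Every IL-13 and IL-4 macrophage library of Col11a2 lay above the microglia libraries of that treatment, but edgeR's adjusted p was 0.421 with IL-13 and 0.103 with IL-4 (log2 fold change -4.68, SE 1.75). With DESeq2 the latter was 0.0275, in the model of all 18 libraries edgeR's was 0.0365, and without mouse 10 it was 0.0455.

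Of the type IV chains, 5 of 6 were called with PBS (Col4a1, Col4a2, Col4a3, Col4a5 and Col4a6), 5 of 5 with IL-13 (with Col4a4 in place of Col4a3) and 3 of 5 with IL-4 (Col4a1, Col4a2 and Col4a5). Col4a1 was 38.7-fold, 62.0-fold and 113-fold higher in microglia with PBS, IL-13 and IL-4 (edgeR, PBS log2 fold change 5.24, SE 0.386, adjusted p = 2.16e-05). Col4a2 was 114-fold, 88.7-fold and 136-fold higher. In macrophages Col4a1 stood at 7.72, 7.53 and 4.11 CPM with PBS, 2.73, 2.20 and 3.92 with IL-13 and 1.28, 0.835 and 2.30 with IL-4. Against macrophage libraries at 0, Col4a6 was at least 40.8-fold higher with PBS and at least 22.4-fold higher with IL-13, and Col4a5 at least 75.4-fold higher with IL-13 and at least 22.2-fold with IL-4.

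Type VI chains were called higher in microglia in 4 of 4, 5 of 5 and 4 of 4 tests in the order PBS, IL-13 and IL-4, namely Col6a1, Col6a2, Col6a3 and Col6a6 in each and Col6a5 with IL-13. Col6a2 was 288-fold, 1979-fold and 893-fold higher, the highest with IL-13 (edgeR log2 fold change 10.9, SE 1.23, adjusted p = 0.000987). Col6a1 in IL-4 macrophages rested on 2 counts in all, against 11129 in IL-4 microglia, a ratio of 5146 with an exact interval of 1424 to 42495. The short chain member Col8a1 was called with each treatment, and Col8a2, at 0 in every macrophage library, was at least 124-fold higher with PBS and at least 199-fold higher with IL-13.

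The FACIT members parted. Col16a1 and Col12a1 were called higher in microglia with every treatment and Col9a3 with PBS, while Col20a1 was not called in either test it entered. Col14a1 did not differ beyond its spread with PBS, at a fold of 0.952 (edgeR log2 fold change -0.11, SE 0.614, adjusted p = 0.91). Its fold was 9.93 with IL-13 and 8.16 with IL-4, and neither was called (edgeR log2 fold changes 3.34 and 3.05, adjusted p = 0.0535 and 0.0722). Of the remaining members, Col18a1 and Col28a1 were called with PBS and IL-13, Col18a1 with IL-4 too, Col15a1 with PBS and IL-4, Col13a1 with PBS and IL-13 and Col23a1 with PBS. Col13a1 was at 0 in every macrophage library, and its level was at least 41.5-fold higher in PBS and at least 47.2-fold higher in IL-13 microglia. Col7a1 was tested with IL-13 and IL-4 and called in neither, with edgeR log2 fold changes of -0.33 and 0.09.

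Markers of several other cells moved with this difference. With PBS the summed markers of astrocytes averaged 155 CPM in microglia and 13.7 in macrophages, and those of neurons 12.9 and 0.868. Schwann cell markers averaged 12.2 and 1.14 CPM, and oligodendrocyte lineage markers 318 and 179. Neutrophil markers went the other way, at 48.2 and 604 CPM. With the cytokines the astrocyte sum averaged higher in macrophages, at 184 against 157 CPM with IL-13 and 239 against 120 with IL-4. The summed level of 18 fibroblast markers, led by Dcn, Bgn and Postn, ran from 253 to 5002 CPM in microglia and from 8.31 to 60 CPM in macrophages, with Tbx18 at 0 in every macrophage library. The 16 endothelial markers, led by Cldn5, Pecam1 and Flt1, summed to 1410 to 4522 CPM in microglia and 54.8 to 439 CPM in macrophages, where Pecam1 and Flt1 made up most of the sum in the cytokine groups but not with PBS, and the rest of the list reached 9.67 to 57.1 CPM. The 14 markers of pericytes and smooth muscle, led by Anpep, Rgs5 and Vtn, summed to 144 to 902 CPM in microglia and 43.8 to 385 CPM in macrophages, where the latter was mostly Anpep, and without it 77.9 to 896 and 5.09 to 29.5 CPM. With PBS, edgeR called 17 of 17 tested fibroblast markers, 16 of 16 endothelial markers and 13 of 14 pericyte markers higher in microglia. Of all genes, 24.5% were called higher there. Like the collagens, markers that are high in microglia alone passed the filter on low counts through microglia. The microglia markers Fcrls and Cx3cr1 were called higher in the microglia libraries with each treatment, with PBS at log2 fold changes of 1.63 and 1.84 (edgeR adjusted p = 0.00254 and 0.0017), and within each treatment every microglia library lay above every macrophage library for both. In bulk libraries, fewer cells of a type and less RNA per cell cannot be told apart. The part of fibroblast, endothelial or pericyte RNA in the collagen levels was not tested.

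**Figure D3:**
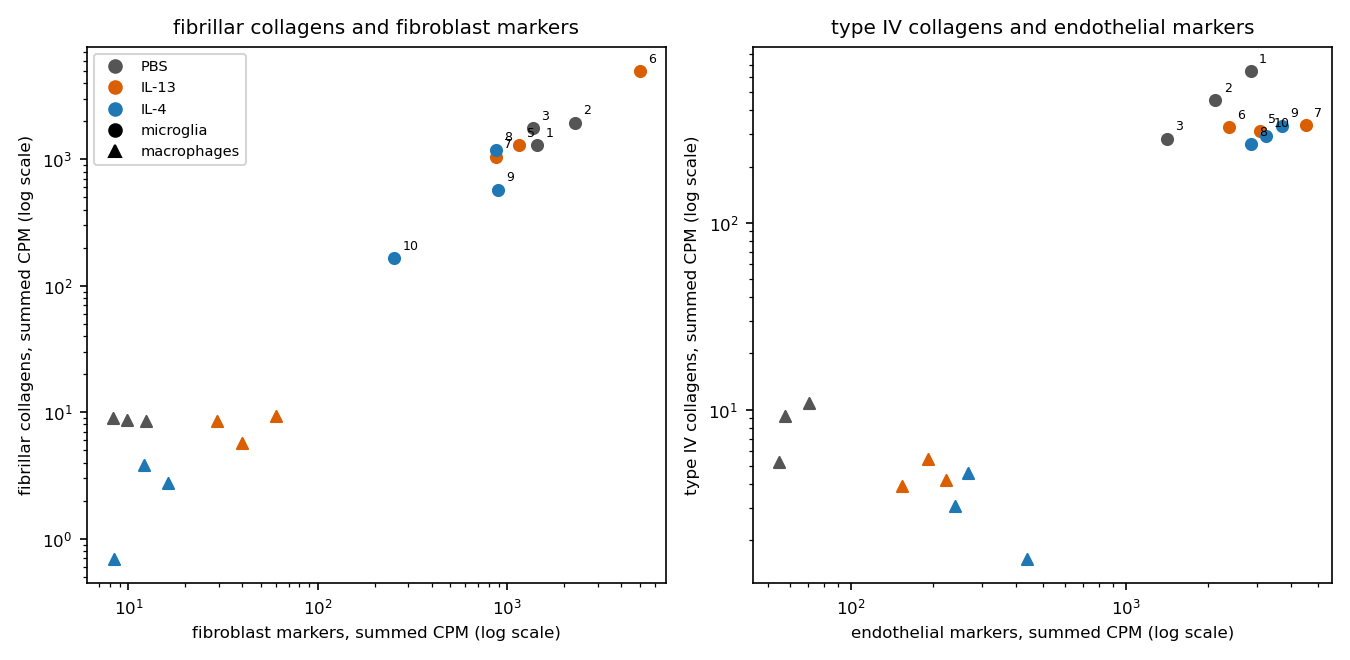
Summed fibrillar collagens against the summed fibroblast markers, and summed type IV collagens against the summed endothelial markers, in the 18 libraries (log axes, CPM), coloured by treatment, with circles for microglia labelled by mouse and triangles for macrophages. The microglia points lie apart from the macrophage points on both axes of both panels, and IL-13 mouse 6 (4952 CPM fibrillar, 5002 CPM markers) and IL-4 mouse 10 (165 and 253 CPM) mark the ends of the microglia on the fibroblast panel.

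Whether IL-4 or IL-13 changed collagen RNA in microglia was then compared over the 9 microglia libraries. No member passed edgeR's test in any of the 3 comparisons, out of 37 tested. Of all genes, edgeR called 2.2% for IL-4 against PBS, 0.366% for IL-13 against PBS and 0.0385% for IL-4 against IL-13, in either direction. At an unadjusted p under 0.05 in edgeR there were 9 members for IL-4 against PBS, where 16.1% of all genes were under it, 7 for IL-13 against PBS, beside 7.73%, and 9 for IL-4 against IL-13, beside 11%. DESeq2 called 4, 3 and 3 members in that order, where it called 9.53%, 2.54% and 4.79% of all genes. Without mouse 8 edgeR called Col13a1 lower with IL-4 than with PBS (adjusted p = 0.0455). The median log2 fold change of the 37 was -1.16 for IL-4 against PBS, -0.0052 for IL-13 against PBS and -1.22 for IL-4 against IL-13, beside -0.059, -0.000817 and -0.0193 over all genes.

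Single libraries held many of the extremes. Of the 37 members tested in microglia, 16 had their highest level of the 9 libraries in IL-13 mouse 6 and 7 in PBS mouse 1. IL-4 mouse 10 was the lowest library for 16 members, and 9 members were at 0 there, against 2 to 8 in the other libraries. The fibroblast markers had the same extremes, at 5002 CPM in mouse 6 and 253 CPM in mouse 10, and decorin (Dcn), a proteoglycan of fibroblasts, was at 650, 951 and 403 CPM in PBS, 348, 2183 and 138 in IL-13 and 253, 251 and 20.7 in IL-4 microglia. Mouse 6 was also the lowest IL-13 microglia library for the 5 markers of all sorted myeloid cells, which summed to 5410, 3334 and 5127 CPM in PBS, 4712, 2291 and 3823 in IL-13 and 3386, 2681 and 3226 in IL-4 microglia.

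Markers of the sorted cells moved with the cytokines too. Cx3cr1 was at 1892, 957 and 1783 CPM in PBS, 1007, 316 and 726 in IL-13 and 495, 290 and 304 in IL-4 microglia, where it fell with IL-4 (log2 fold change -2.07, edgeR adjusted p = 0.0445). Fcrls was at 1694, 911 and 1526, then 930, 387 and 748, then 732, 422 and 526 CPM, and was not called. For both markers mouse 6 was the lowest IL-13 library. The 6 markers of monocyte-derived macrophages summed to 75.7, 306 and 113 CPM in PBS, 4667, 4778 and 6885 in IL-13 and 11541, 19963 and 20732 in IL-4 microglia. Chil3, which IL-4 and IL-13 are known to induce, made up nearly all of the sum in the cytokine groups and most of it with PBS. Without Chil3, they summed to 25.3, 55.1 and 33.8, then 41.3, 62.0 and 67.1, then 58.8, 67.1 and 102 CPM, so that the IL-4 libraries lay above the PBS libraries. In macrophages the sum without Chil3 was 263 to 1088 CPM. The part of these cells in the collagen levels of the microglia groups was not tested.

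No fibrillar member passed the test in microglia. All 10 tested fibrillar members had a negative fold change in IL-4 against PBS, and 5 of 10 in IL-13 against PBS. Leaving out 1 mouse at a time, the log2 fold change of IL-4 against PBS ran from -2.61 to -1.15 for Col1a1 and from -1.89 to -0.66 for Col3a1. Col1a1 averaged 434 ± 24.1 CPM in PBS, 440 ± 288 in IL-13 and 140 ± 127 in IL-4 microglia (SD, n = 3). Col3a1 averaged 727 ± 237, 1325 ± 1329 and 333 ± 262 CPM in the same order (SD, n = 3). Without mouse 6, the fold changes of IL-13 against PBS turned negative for Col1a1 (-0.64 from 0.02), Col1a2 (-0.59 from 0.40) and Col3a1 (-0.37 from 0.86). Summed fibroblast markers averaged lower with IL-4 as well, at 867, 893 and 253 CPM against 1438, 2284 and 1368 in PBS, and the ratio of Col1a1 to Dcn ran from 0.352 to 1.71 over the 9 libraries. The fibroblast marker Postn, an extracellular protein of scar fibroblasts, went the other way and rose from 26.9, 48.9 and 31.8 CPM in PBS to 256, 448 and 273 in IL-13 and 269, 299 and 175 in IL-4 microglia (edgeR adjusted p = 0.00401 and 0.00314). What part of the fibrillar difference follows the fibroblast markers was not tested.

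**Figure D4:**
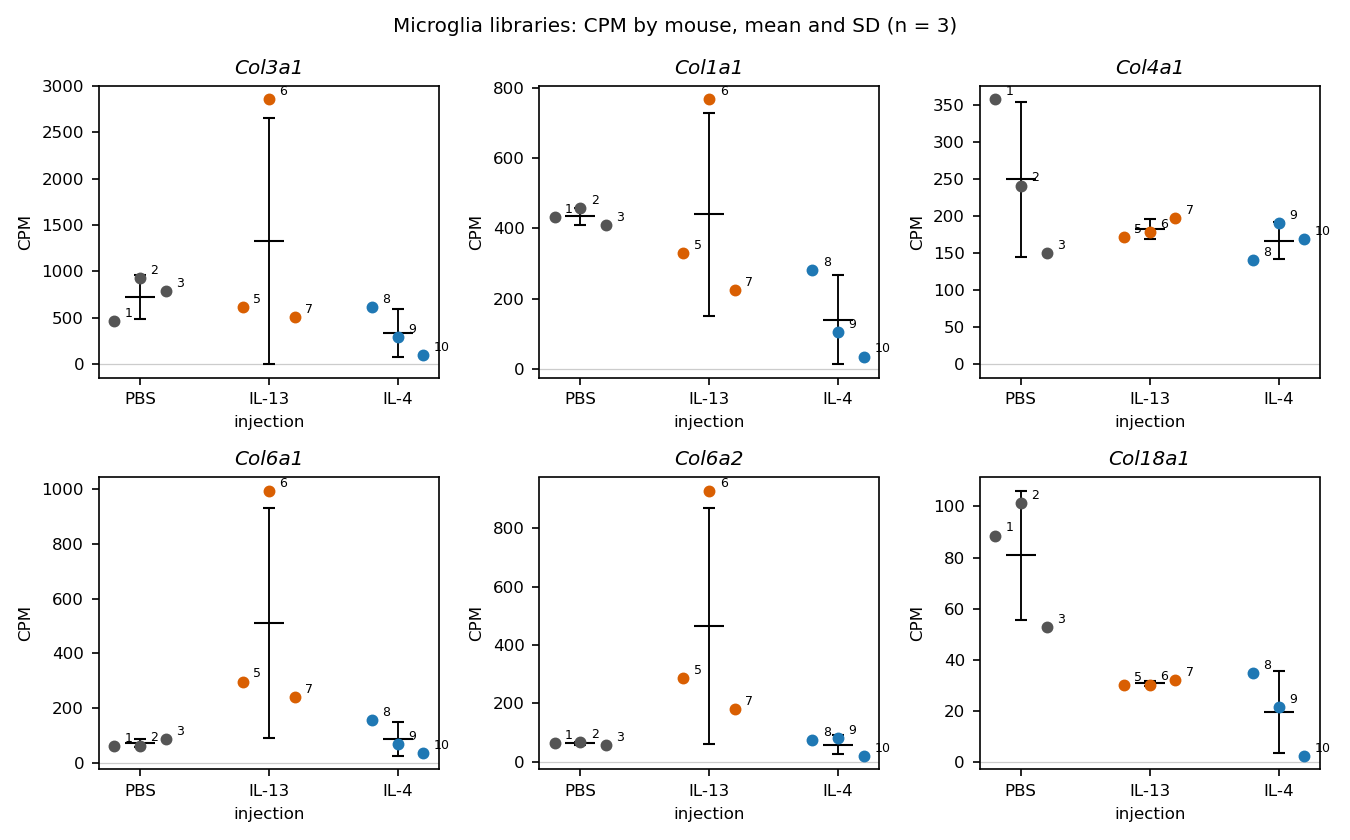
Level of Col3a1, Col1a1, Col4a1, Col6a1, Col6a2 and Col18a1 in the 9 microglia libraries (points labelled by mouse, linear axes, CPM), with the mean and SD of each group of 3. The IL-13 points of Col6a1 and Col6a2 all lie above the PBS and IL-4 points, the PBS points of Col18a1 all lie above the cytokine points, the IL-4 points of Col1a1 lie below its PBS points, and the groups of Col3a1 and Col4a1 overlap.

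No type VI member passed edgeR's test in microglia either, although all IL-13 libraries of Col6a1 and Col6a2 stood above the others. Col6a1 averaged 70.8 ± 14.3 CPM in PBS, 511 ± 420 in IL-13 and 86.6 ± 61.2 in IL-4 microglia, and Col6a2 63.8 ± 5.17, 466 ± 405 and 58.7 ± 33.4 CPM (SD, n = 3). For IL-13 against PBS the log2 fold change was 2.85 for Col6a1 (SE 0.643, edgeR adjusted p = 0.176) and 2.87 for Col6a2 (SE 0.658, edgeR adjusted p = 0.186). It stayed positive without each mouse, between 1.93 and 3.19 for Col6a1. DESeq2 called both genes (log2 fold changes 2.87 and 2.89, adjusted p = 0.000129 and 0.000174), and so did edgeR with all 18 libraries in 1 model (adjusted p = 0.0225 and 0.0418), which called 1.02% of all genes. For IL-4 against IL-13 the log2 fold changes were -2.54 (SE 0.635, edgeR adjusted p = 0.255) and -2.96 (SE 0.66, edgeR adjusted p = 0.209), and the same alternatives called both, the model of all 18 libraries beside 0.81% of all genes. All 5 tested type VI members had a positive fold change and an unadjusted p under 0.05 for IL-13 against PBS, beside 7.73% of all genes under it, with a median of 2.85, and their edgeR adjusted p ran from 0.176 to 0.638. These members were read in the same libraries, and Col6a1, Col6a2, Col6a3 and Col6a5 all peaked in mouse 6, so they are not separate observations.

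The type VI difference was set beside the levels of Dcn and Col1a1 in the same library. The ratio of Col6a1 to Dcn was 0.0955, 0.0662 and 0.217 in PBS, 0.852, 0.456 and 1.75 in IL-13 and 0.610, 0.275 and 1.74 in IL-4 microglia. The ratio of Col6a1 to Col1a1 was 0.143, 0.137 and 0.213 in PBS, 0.901, 1.3 and 1.07 in IL-13 and 0.550, 0.662 and 1.02 in IL-4 microglia. Both ratios were higher in every cytokine library than in every PBS library, including IL-4, whose Col6a1 levels overlapped those of PBS. This depended on the gene set beside Col6a1. Postn, another fibroblast marker, was at 26.9, 48.9 and 31.8 CPM in PBS, 256, 448 and 273 in IL-13 and 269, 299 and 175 in IL-4 microglia. Col6a1 stood above Postn in every PBS library, on both sides of it in IL-13 and below it in every IL-4 library. Which cells of the sort carried Col6a1 was not tested.

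The type IV pair and Col18a1 are basement membrane genes. Col4a1 averaged 250 ± 104 CPM in PBS, 183 ± 13.7 in IL-13 and 167 ± 24.8 in IL-4 microglia, and Col4a2 198 ± 77.7, 128 ± 2.96 and 123 ± 5.65 CPM (SD, n = 3). The log2 fold change of Col4a2 was -0.66 for IL-4 and -0.63 for IL-13 against PBS, and neither was called. The endothelial cadherin Cdh5 differed 1.85-fold over the 9 microglia libraries, and the ratio of Col4a1 to Cdh5 stayed between 5.69 and 9.89. Against Cldn5, the claudin of the blood-brain barrier, the ratio was 0.479, 0.490 and 0.510 in PBS, 0.197, 0.324 and 0.176 in IL-13 and 0.171, 0.177 and 0.186 in IL-4 microglia, higher in all PBS libraries than in any other. That order depended on the marker. The endothelial marker Kdr had 4150, 3057 and 2486 counts in PBS, 1903, 1311 and 3369 in IL-13 and 1315, 1476 and 1048 in IL-4 microglia.

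For IL-4 against PBS the log2 fold change of Col18a1 was -2.01 (SE 0.696, edgeR adjusted p = 0.195), and for IL-13 it was -1.38 (SE 0.682, edgeR adjusted p = 0.722). DESeq2 called the former (adjusted p = 0.0295). Pericyte and smooth muscle markers other than Anpep were also lower, with sums of 896, 848 and 653 CPM in PBS, 219, 493 and 178 in IL-13 and 137, 98.6 and 77.9 in IL-4 microglia. Anpep went the other way, from 4.90 to 6.69 CPM in PBS to 16.7 to 30.5 in IL-13 and 40.6 to 73.6 in IL-4 microglia. Their smooth muscle actin Acta2 fell from 195, 239 and 181 CPM in PBS to 21.6, 19.2 and 52.3 in IL-13 and 9.94, 13.3 and 9.78 in IL-4 microglia (edgeR adjusted p = 0.0169 and 0.00123). The pericyte receptor Pdgfrb stood at 75.8, 61.2 and 59.2, then 29.9, 97.2 and 14.3, then 18.7, 10.2 and 4.08 CPM. Their part in the level of Col18a1 was not tested. DESeq2 further called Col8a1 and Col4a6 lower and Col6a5 higher for IL-4 against PBS, Col6a5 higher for IL-13 against PBS and Col4a6 lower for IL-4 against IL-13.

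The cytokines were then compared over the 9 macrophage libraries, where collagen RNA was scarce. For IL-4 against PBS, 5 of 18 tested members fell (Col1a1, Col4a1, Col6a1, Col14a1 and Col27a1), where 7.14% of all genes were called lower, and 1 rose (Col7a1), where 6.81% were called higher. For IL-13 against PBS, Col14a1 alone fell, where 1.63% of all genes were called lower and 2.46% higher, and DESeq2 called 3 members (Col14a1, Col27a1 and Col6a3) and 7.55% of all genes. The median log2 fold change of the 18 was -1.72 for IL-4 and -0.24 for IL-13 against PBS, beside 0.0191 and 0.00497 over all genes. For IL-4 against IL-13 edgeR called 0 of 18, where it called 0.25% of all genes, with 9 members at an unadjusted p under 0.05, beside 11.1% of all genes, and 5 (Col1a1, Col1a2, Col3a1, Col5a2 and Col14a1) called lower by DESeq2, which called 2.63% of all genes in either direction. With no filter on low counts edgeR called 2 members for IL-13 against PBS and 2 for IL-4 against IL-13, beside 2.4% and 0.561% of all genes.

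Col14a1 was the clearest of these, with 332, 172 and 223 counts in PBS, 83, 44 and 86 in IL-13 and 33, 14 and 20 in IL-4 macrophages. Its mean level was 6.94 ± 2.17, 2.16 ± 0.780 and 0.554 ± 0.213 CPM (SD, n = 3), with no overlap between any of the 3 groups. It fell by 3.63 on the log2 scale with IL-4 (SE 0.434, edgeR adjusted p = 0.00052) and by 1.68 with IL-13 (SE 0.393, edgeR adjusted p = 0.0411). The IL-4 call held without each of the 6 mice, whereas the IL-13 call was lost without any of them (adjusted p from 0.0634 to 0.153) and in the model of all 18 libraries (adjusted p = 0.686). Between IL-4 and IL-13 the log2 fold change was -1.95 (edgeR adjusted p = 0.0957).

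Col4a1 had 273, 247 and 148 counts in PBS, 81, 75 and 141 in IL-13 and 54, 32 and 90 in IL-4 macrophages. It fell by 2.13 on the log2 scale with IL-4 (SE 0.421, edgeR adjusted p = 0.00787), with all PBS levels above all IL-4 levels. Its partner Col4a2 was at 2.74, 1.46 and 1.00 CPM in PBS, 1.11, 1.87 and 1.33 in IL-13 and 0.928, 0.574 and 1.20 in IL-4 macrophages, and was not called (log2 fold change -0.94 with IL-4, edgeR adjusted p = 0.225). The PBS and IL-4 ranges of Col4a2 overlapped.

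Col27a1 (chr4:63214004-63334991) had 64, 27 and 69 counts in PBS, 9, 6 and 4 in IL-13 and 4, 2 and 0 in IL-4 macrophages. It fell by 4.83 on the log2 scale with IL-4 (SE 0.851, edgeR adjusted p = 0.00424), and with IL-13 the log2 fold change was -2.94 (edgeR adjusted p = 0.0561). All PBS libraries lay above all cytokine libraries. Col1a1 had 43, 63 and 45 counts in PBS, 27, 83 and 49 in IL-13 and 6, 6 and 0 in IL-4 macrophages, and fell by 3.82 with IL-4 (SE 0.781, edgeR adjusted p = 0.00962). It was the IL-4 group of Col1a1 that stood apart, since the IL-13 range held the PBS range. The calls of Col4a1, Col27a1 and Col1a1 held without each of the 6 mice.

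The remaining calls of IL-4 against PBS were fragile. Col6a1 had 14, 14 and 5 counts in PBS and 0, 1 and 1 in IL-4 macrophages, a ratio of 18.9 with an exact interval of 4.84 to 163 (edgeR adjusted p = 0.0496), and the call was lost when any of the 6 mice was left out. Col7a1 (ENSMUSG00000025650.12, chr9:108953586-108984875) rose, with 9, 0 and 9 counts in PBS, 13, 15 and 19 in IL-13 and 63, 58 and 48 in IL-4 macrophages (log2 fold change 3.03, SE 0.78, edgeR adjusted p = 0.0268). Its groups did not overlap, but the call held only without PBS mouse 2 and was lost without any of the other 5 mice (adjusted p from 0.0569 to 0.0675). Col5a2 had 16, 1 and 36 counts in PBS and none in IL-4 macrophages, at least 6.55-fold lower, and was not called (edgeR adjusted p = 0.0591). Leaving out a mouse also added calls that the 9 libraries did not give, of Col6a3 without mouse 1, Col5a2 without mouse 2, Col3a1 without mouse 8 and Col5a3 without mouse 9.

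Col6a3 had 15, 0 and 0 counts in PBS, 81, 62 and 144 in IL-13 and 37, 8 and 23 in IL-4 macrophages. All IL-13 libraries lay above all PBS and IL-4 libraries. The log2 fold change of IL-13 against PBS was 4.29 (SE 1.11, edgeR adjusted p = 0.0607), and Col6a3 was called without PBS mouse 1 (log2 fold change 9.69 against PBS libraries at 0, which is no bound, adjusted p = 0.0122), by DESeq2 (adjusted p = 0.0361) and in the model of all 18 libraries (adjusted p = 0.0223). Col6a1 and Col6a2, its partner chains, did not share this, at no more than 0.644 CPM in any macrophage library. Col11a2 had 71, 83 and 97 counts in PBS, 52, 78 and 79 in IL-13 and 116, 64 and 22 in IL-4 macrophages, with overlapping groups and no call.

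**Figure D5:**
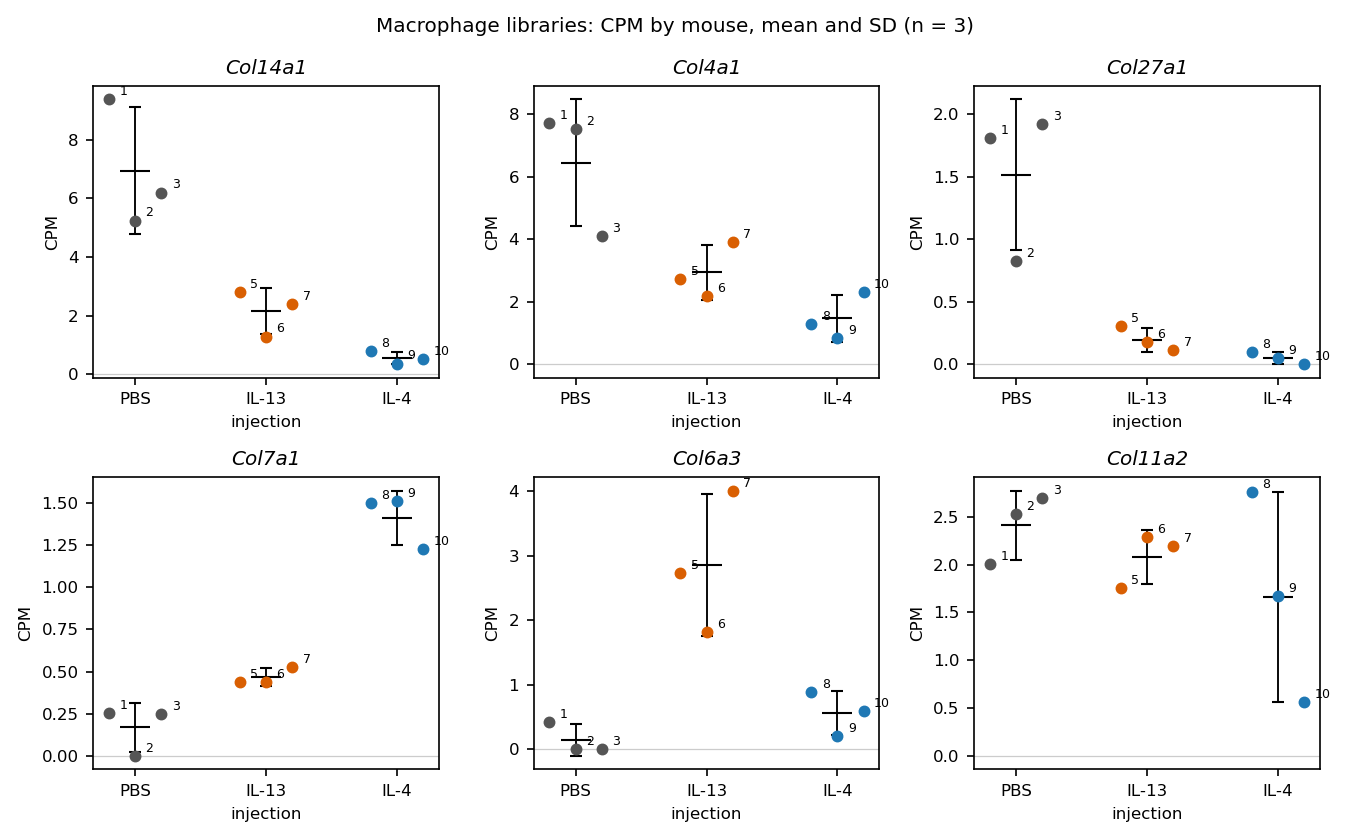
Level of Col14a1, Col4a1, Col27a1, Col7a1, Col6a3 and Col11a2 in the 9 macrophage libraries (points labelled by mouse, linear axes, CPM), with the mean and SD of each group of 3. Col14a1 steps down from PBS through IL-13 to IL-4 with no overlap, Col7a1 steps up, Col6a3 is highest in the 3 IL-13 libraries, and the groups of Col11a2 overlap.

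Other lists moved with the macrophage groups. The microglia marker Cx3cr1, the fractalkine receptor, was at 469, 269 and 517 CPM in PBS, 144, 88.7 and 96.8 in IL-13 and 16.9, 15.4 and 20.4 in IL-4 macrophages. Fcrls was at 499, 274 and 525, then 181, 102 and 110, then 41.3, 23.1 and 31.5 CPM. Both fell with IL-4 (edgeR adjusted p = 1.59e-05 and 0.000152) and with IL-13 (edgeR adjusted p = 0.00342 and 0.0163), and neither was at 0 in any macrophage library. The fibroblast markers went from 8.31, 12.4 and 9.84 CPM in PBS to 39.8, 60 and 29.5 in IL-13 and 12.1, 16.2 and 8.42 in IL-4 macrophages, of which Postn was 3.51, 6.59 and 4.73, then 37.6, 52.5 and 26.0, then 11.3, 14 and 7.43 CPM. Without Postn, they summed to 4.81, 5.76 and 5.11, then 2.12, 7.53 and 3.45, then 0.785, 2.11 and 0.999 CPM. The endothelial markers other than Pecam1 and Flt1 summed to 57.1, 40.8 and 40.3, then 30.1, 9.67 and 27.7, then 44.9, 13.6 and 26.9 CPM. Pericyte and smooth muscle markers other than Anpep summed to 29.5, 14.2 and 15.6 CPM in PBS, 21.5, 11.7 and 15.1 in IL-13 and 5.83, 5.09 and 8.30 in IL-4 macrophages, so the IL-4 libraries lay below all others. Oligodendrocyte lineage markers summed to 189, 182 and 165 CPM in PBS and 125, 117 and 123 in IL-4 macrophages. Schwann cell markers summed to 0.707, 1.71 and 1.00 CPM in PBS and 0.238, 0.261 and 0.154 in IL-4 macrophages. Astrocyte markers went the other way, from 15.2, 11.4 and 14.5 CPM in PBS to 54.7, 496 and 167 in IL-4 macrophages. The part of all these cells in the fall of Col14a1, Col4a1, Col27a1 and Col1a1 was not tested.

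Whether the cell types answered differently was tested as an interaction over all 18 libraries. EdgeR called 0 of 37 members for IL-4 and 0 of 37 for IL-13, where it called 0.998% and 0.0242% of all genes. At an unadjusted p under 0.05 there were 4 members for IL-4 and 6 for IL-13, beside 12.3% and 5.84% of all genes, so the share for IL-4 was near that of all genes. DESeq2 called 2 and 0 members, beside 4.68% and 1.1% of all genes. For IL-4 the members under 0.05 were Col4a1 (1.55, SE 0.491, edgeR adjusted p = 0.173), Col6a1 (4.31, SE 1.61, edgeR adjusted p = 0.262), Col14a1 (3.09, SE 1.37, edgeR adjusted p = 0.364) and Col27a1 (3.67, SE 1.47, edgeR adjusted p = 0.305), each value being the log2 response of microglia minus that of macrophages. Col4a1 and Col6a1 were the members that DESeq2 called. By edgeR's test the falls of these genes in macrophages were not shown to differ from the response of microglia, and for Col4a1 and Col6a1 the tools gave different calls. For IL-13 the value was 3.21 for Col6a1 (edgeR adjusted p = 0.6), 3.38 for Col14a1 (edgeR adjusted p = 0.746) and -3.22 for Col6a3 (edgeR adjusted p = 0.631), and the other members under 0.05 were Col4a5, Col6a6 and Col23a1.

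Genes that process collagen made another list, of 33 genes, among which Tll1 and Adamts3 had no count in macrophages. EdgeR called 21 of 31 tested higher and 5 lower in PBS microglia than in PBS macrophages, beside 24.5% and 16.4% of all genes, so the lower share was near that of all genes. It called 15 of 28 higher and 5 lower with IL-13, beside 17.1% and 9.43%, and 10 of 24 higher and 6 lower with IL-4, beside 13.2% and 9.83%. Serpinh1, the chaperone of the collagen helix, was at 86.7, 153 and 76.1 CPM in PBS, 81.4, 203 and 74.8 in IL-13 and 74.6, 66.2 and 38.7 in IL-4 microglia and at most 0.732 in macrophages. Lox, which crosslinks collagen, was at 46.1, 131 and 76.7, then 68.7, 522 and 96.0, then 35.1, 73.5 and 17.8 CPM in microglia and at most 0.367 in macrophages. Both peaked in mouse 6 and were lowest in mouse 10, like Col1a1, Col1a2, Col3a1 and Col5a2 but not the other fibrillar chains. P4hb, a general disulfide isomerase and the beta subunit of prolyl hydroxylase, was the reverse, at 770 to 1028 CPM in microglia and 1145 to 2213 in macrophages. Ppib, the cyclophilin of collagen folding, was at 224 to 327 CPM in microglia and 293 to 535 in macrophages.

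Sparc, a collagen-binding glycoprotein, was at 2441, 1638 and 1478 CPM in PBS, 1344, 1425 and 1145 in IL-13 and 1016, 793 and 730 in IL-4 microglia. It was the only processing gene called with a cytokine in microglia, falling by 1.10 on the log2 scale with IL-4 (SE 0.209, edgeR adjusted p = 0.0293). In macrophages, 2 of 20 tested processing genes rose (Colgalt1 and P4hb) and 3 fell (Sparc, Loxl3 and P3h2) with IL-4, beside 6.81% of all genes called higher and 7.14% lower, while P4hb rose and Sparc fell with IL-13, beside 2.46% and 1.63%. P4hb went from 1152, 1145 and 1163 CPM in PBS to 1855, 2002 and 1803 in IL-13 and 1738, 2213 and 2183 in IL-4 macrophages (edgeR adjusted p = 0.0187 and 0.00338).

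Genes that bind or break down collagen made the last list, of 18 genes, among which Gp6 had no count. EdgeR called 7 of 15 tested higher (Ddr1, Ddr2, Fap, Itga1, Itga11, Mmp2 and Mrc2) and 5 lower (Ctsk, Mmp8, Mmp9, Mmp14 and Mrc1) in PBS microglia than in PBS macrophages, beside 24.5% and 16.4% of all genes. Mrc1, the mannose receptor that takes up collagen fragments, was at 7.73, 21.4 and 22.8 CPM in PBS, 108, 238 and 139 in IL-13 and 146, 444 and 421 in IL-4 microglia. It was at 49.5, 61.8 and 51.2, then 1035, 1500 and 1277, then 1114, 2014 and 1541 CPM in macrophages, so no cytokine library overlapped a PBS library in either cell type. Mrc1 rose by 4.84 with IL-4 and 4.56 with IL-13 in macrophages (log2, edgeR adjusted p = 3.96e-06 and 7.87e-06) and by 4.30 with IL-4 in microglia (edgeR adjusted p = 0.00704), and with IL-13 in microglia its adjusted p was 0.0544. Of 13 tested genes of this list in macrophages, 2 rose with IL-4, Mrc1 and the collagen-cleaving cathepsin Ctsk (log2 fold change 1.54, edgeR adjusted p = 0.023), and 3 fell, Mmp2, Mmp14 and Mrc2, beside 6.81% and 7.14% of all genes. With IL-13, Mrc1 rose and Mmp14 fell, beside 2.46% and 1.63% of all genes. The collagen-binding integrin subunit Itgb1 was at 288 to 561 CPM in microglia and 230 to 452 in macrophages, and the inhibitory collagen receptor Lair1 at 153 to 274 and 135 to 192 CPM.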

How the data were processed

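RNA of the sorted cells was sequenced after SMART-seq2 amplification, which does not mark strand. Per the labels and the study's methods, the authors aligned reads to GRCm38 with STAR 2.5.3a and estimated gene counts with RSEM 1.3.0. The deposited values are expected counts per gene and library, with no normalization, for 53465 genes and 18 libraries of 35961305 to 45849829 counts each.

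The expected counts were rounded to whole numbers. Genes were filtered with filterByExpr and tested with edgeR 4.0.16 in R 4.3.3 (TMM, robust quasi-likelihood fit, Benjamini-Hochberg adjustment, threshold 0.05). Cytokines were compared within the 9 libraries of each cell type, as the study fitted each cell type apart, cell types within the 6 libraries of each treatment, and interactions over all 18. The filter kept 37 of the 44 collagen genes in at least 1 fit. Standard errors are the absolute log2 fold change divided by the square root of F. Levels are CPM with 1 TMM scaling over 18 libraries, divided by exonic length (GENCODE M21) where genes are compared with each other. Python 3.11.15, pandas 2.3.3 and scipy 1.17.1 made the tables. The edgeR script was tested on simulated data.

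Both cell types came from the same mouse, so the mouse numbers pair the libraries. The deviations from the group means correlated between the 2 libraries of a mouse at 0.0643 to 0.249 over 12553 genes, in 9 mice. The alternatives were DESeq2 1.42.0, DESeq2 size factors in edgeR, no filter on low counts, all 18 libraries in 1 model, the mouse as a block, each mouse left out, and CPM without TMM.

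The members and lists were chosen with earlier results of these data known. Values per library are given for up to 3 members of each structural class with the highest level per kb in microglia, and every member that edgeR called in a main comparison is named. Of the other lists, the 3 genes with the highest mean CPM and those needed for a ratio are named, and so are members at 0 throughout. Of the microglia markers, 1 gene is not reported here, so the list is given by Fcrls and Cx3cr1 only. Cldn5, Acta2 and the leave-one-out calls were added after their values were seen.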

Additional observations from a re-analysis of the deposited data

How the results depend on the processing

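Most results kept their direction and their side of the threshold. For the members that edgeR called and a few singled out in the text, 816 values under an alternative did so, 12 crossed to a call, 76 lost one and 6 changed sign, and other members that an alternative alone called are not in this tally. In the following comparisons DESeq2 called more members than edgeR: 4 for IL-4 and 3 for IL-13 against PBS and 3 for IL-4 against IL-13 in microglia, 3 for IL-13 against PBS and 5 for IL-4 against IL-13 in macrophages, and 2 in the IL-4 interaction. In the IL-13 interaction neither called a member, and DESeq2 counts for the remaining comparisons are not given here. With all 18 libraries in 1 model edgeR called 2 members for IL-13 against PBS and 2 for IL-4 against IL-13 in microglia, beside 1.02% and 0.81% of all genes. With no filter it called 2 for IL-13 against PBS (Col14a1 and Col27a1) and 2 for IL-4 against IL-13 (Col14a1 and Col1a1) in macrophages, beside 2.4% and 0.561% of all genes. The cause of these differences was not tested.

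Leaving out 1 mouse at a time gave 0 to 1 calls for IL-4 against PBS in microglia and 0 to 1 for IL-13 against PBS in macrophages, and 16 to 21 with IL-13 and 10 to 19 with IL-4 between the cell types. The log2 fold change of IL-13 against PBS in microglia changed sign for Col1a1 without mouse 3 and without mouse 6 (range -0.64 to 0.337), and without mouse 6 for Col1a2 (range -0.586 to 0.748) and Col3a1 (range -0.371 to 1.25). That of IL-4 against PBS in microglia changed sign for Col6a1 without mouse 8 (range -0.405 to 0.685) and for Col6a2 without mouse 10 (range -0.405 to 0.317). CPM without TMM put Col1a1 at 492 in PBS microglia, from 434, and Col4a1 at 214 in IL-13 microglia, from 183.

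With the mouse as a block, 27, 24 and 16 members were called between the cell types with PBS, IL-13 and IL-4, and 0 and 0 in the interactions, so the pairing changed no count by more than 1.5 times. Many macrophage members rest on under 100 counts a library, which limits what can be seen there, and 3 mice a group limit all comparisons.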
